A study of Drosophila melanogaster with 16 samples.

Results

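Small RNAs of young male flies without dFOXO were set against those of young wildtype males, with attention to the rarer miRNAs, the low-abundance transposons and the small RNAs that map to annotated transcripts. The comparison rests on 4 of the 16 libraries of the series, chosen by genotype, sex and age as their labels give them. The dFOXO-null males carry the dfoxo{delta}94 allele, a deletion made by imprecise excision of a P element and backcrossed into wDah, and their libraries come from flies of 5 days (replicate 1) and 6 days (replicate 2). The wildtype males are wDah, an outbred Dahomey line that carries a white mutation, of the same 2 ages. Both genotypes were kept at 25 °C with the sexes together, and each library pools 40 whole flies, so that fewer cells of a type and less small RNA per cell cannot be told apart. Nothing in the labels says how the 2 replicates of a genotype were separated beyond their number and age. The p-values below measure the spread between libraries. Unless a smaller set is named, that spread was estimated over all 16 libraries, not from these 4 alone.

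miRNAs are cut from hairpin transcripts by Drosha and Dcr1 and mostly enter Argonaute Ago1, where they silence mRNAs through short matches at their 5′ end. Dcr2 cuts long double-stranded RNA, including that of transposons and of long cellular hairpins, into siRNAs of 21 nt that are loaded into Ago2. piRNAs, which are longer, silence transposons chiefly in the gonads. dFOXO is the transcription factor that insulin signalling keeps out of the nucleus, and flies that lack it are short-lived and sensitive to stress. The question put to these libraries is which small RNAs differ between the genotypes. Genotype and fly line coincide here, so loss of dFOXO and other differences between the lines cannot be told apart. The dFOXO effect named below means the difference between the genotypes.

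Reads of 19 to 25 nt mapped to known miRNAs and transposons numbered 15259153 and 1725056 in the dFOXO-null libraries, against 9590704 and 3285254 in the wildtype libraries. The 21 nt subset held 1571537 and 193485 reads in dFOXO-null, against 998254 and 366147 in wildtype. Counts on transcripts of the dm6 genome summed to 4261125 and 795251 in dFOXO-null, against 2955799 and 1145576 in wildtype. A read that fits several places was counted at each, so these sums can exceed the number of reads. Levels are given as raw counts or scaled to 1000000 mapped reads of the same table (RPM). A feature is called where edgeR's quasi-likelihood fit of all 16 libraries gave a p under 0.05 after Benjamini-Hochberg adjustment. For features with a mean of at least 20 counts, the median absolute log2 difference between the 2 dFOXO-null libraries was 0.41 for miRNAs, 0.86 for 21 nt transposon reads and 0.68 for dm6 transcripts. Between the 2 wildtype libraries it was 0.46, 0.64 and 0.64. Between the genotypes it was 0.20, 0.55 and 0.36 at replicate 1, and 0.31, 0.71 and 0.62 at replicate 2. No transcript of foxo itself (dm6, 3R:14056945-14087978, + strand) is among the 2303 transcripts counted, so the targeted gene could not be used to check the labels. The muscle miRNAs miR-1-3p and miR-133-3p summed to 217694 and 155491 RPM in dFOXO-null males and 193057 and 114247 RPM in wildtype males. The 4 listed testis miRNAs that were counted summed to 654 and 549 RPM in dFOXO-null and 554 and 440 RPM in wildtype males, against 28.0 to 104 RPM in the young female libraries. The 3 ovary miRNAs summed to 148 and 241 RPM in dFOXO-null and 192 and 106 RPM in wildtype males, against at least 38387 RPM in the young female libraries.

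Among miRNAs of 19 to 25 nt reads, 2 rare ones were almost absent from dFOXO-null young males and none was called higher. In all, 2 of 208 tested miRNAs were called (0.962%), and 3 had an unadjusted p under 0.05 (1.44%). miR-9370-5p had 0 and 0 counts in the dFOXO-null libraries, against 135 and 75 counts (14.1 and 22.8 RPM) in the wildtype libraries. Pooled over each genotype and with a floor of 3 counts over the group, it was at least 92.3-fold lower in dFOXO-null (adjusted p = 0.0064). The fitted log2 fold change of -9.56 depends on the small count the model adds and is no measured size. The hairpin mir-9370 lies at X:11710252-11710301 (dm6, - strand), inside an exon of the protein-coding gene Amun on the same strand. In the 21 nt reads alone miR-9370-5p had 0 and 0 counts in dFOXO-null against 83 and 49 counts in wildtype, at least 56.9-fold lower, and was the 1 miRNA of 153 called there (0.654%, adjusted p = 0.017).

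miR-4969-5p had 1 and 0 counts in dFOXO-null males, against 49 and 18 counts (5.11 and 5.48 RPM) in wildtype males. Wildtype exceeded dFOXO-null by 88.4-fold in pooled RPM, with an exact 95% counting interval of 15.3 to 3542, and the adjusted p was 0.0064. That interval covers counting error only and leaves out the spread between libraries. Its hairpin mir-4969 (3R:21798514-21798671, - strand) lies in an intron of CASK, a gene for a membrane-associated scaffold kinase, on the same strand. Reads counted on the hairpin in the dm6 table gave the same picture with 1 and 0 counts in dFOXO-null and 50 and 19 counts in wildtype. Neither miRNA was particular to young males. miR-9370-5p had 0 counts in each of the 8 dFOXO-null libraries of both sexes and ages, and 15 to 135 counts in each of the 8 wildtype libraries. miR-4969-5p had 1 count over the 8 dFOXO-null libraries and 3 to 63 counts in each wildtype library. Without dFOXO-null replicate 1 both calls of the 19 to 25 nt reads were lost (adjusted p = 0.38 for each), as with spike-in reads as library size (0.078 for miR-9370-5p and 0.77 for miR-4969-5p). The 21 nt call of miR-9370-5p was lost without dFOXO-null replicate 1 (0.75), without dFOXO-null replicate 2 (0.069), without wildtype replicate 2 (0.070), with the 4 young male libraries alone (0.081) and with spike-in scaling (0.070).

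The other rare miRNAs differed by less than the test could call. miR-311-5p, of the mir-310 cluster, had 14.2 and 25.5 RPM in dFOXO-null against 6.36 and 8.22 RPM in wildtype (log2 fold change 1.43 ± 0.66 SE, unadjusted p = 0.047, adjusted p = 1.0). miR-986-5p had 4125 and 4307 RPM in dFOXO-null against 1464 and 2189 RPM in wildtype (1.21 ± 0.58, adjusted p = 1.0). miR-960-3p had 71.1 and 119 RPM in dFOXO-null, against 31.9 and 56.0 RPM in wildtype. Its partner arm miR-960-5p had 57.3 and 52.2 RPM in dFOXO-null, against 26.4 and 32.9 RPM in wildtype. For these 4 both dFOXO-null libraries lay above both wildtype libraries. miR-989-3p, an ovary miRNA, had 48.8 and 84.6 RPM in dFOXO-null and 41.2 and 17.7 RPM in wildtype males. In the other direction, miR-954-5p had 2.75 and 2.90 RPM in dFOXO-null against 4.59 and 7.61 RPM in wildtype, and miR-929-5p had 35.1 and 22.0 RPM in dFOXO-null against 61.2 and 40.5 RPM in wildtype. let-7-3p, miR-996-5p and bantam-5p, the minor arms of their hairpins, had log2 values between -0.57 and -0.31. Libraries of the genotypes did not overlap for 58 of the 208 miRNAs (27.9%), 37 with dFOXO-null above (17.8%) and 21 below (10.1%).

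The 20 miRNAs most abundant in wildtype held 93.1% of miRNA reads in dFOXO-null and 93.6% in wildtype, and their median absolute log2 fold change was 0.14 beside a median SE of 0.52. The 30 next in rank had 0.20 beside an SE of 0.64, the 50 after those 0.20 beside 0.65, and the 108 rarest, under 37.2 RPM in wildtype, 0.31 beside 0.80. At least a 2-fold difference was fitted for 1, 1, 1 and 11 miRNAs of these 4 bands. The 5 miRNAs that follow the 20 most abundant were miR-31b-5p, miR-10-5p, miR-281-3p, miR-279-3p and miR-8-5p, with log2 fold changes of 0.35, 0.31, 0.56, -0.037 and -0.079. miR-8-5p shows the spread between replicates plainly, with 1589 and 4079 RPM in dFOXO-null and 1590 and 4396 RPM in wildtype. Among the 20 most abundant, miR-14-3p, a regulator of insulin-producing cells and of fat storage, had the one fitted difference of 2-fold or more (log2 -1.14 ± 1.26, adjusted p = 1.0). Its raw counts were 38883 and 12440 in dFOXO-null and 30455 and 60383 in wildtype. They are not scaled to the unequal depth of the libraries, so they cannot be compared directly.

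**Figure D1:**
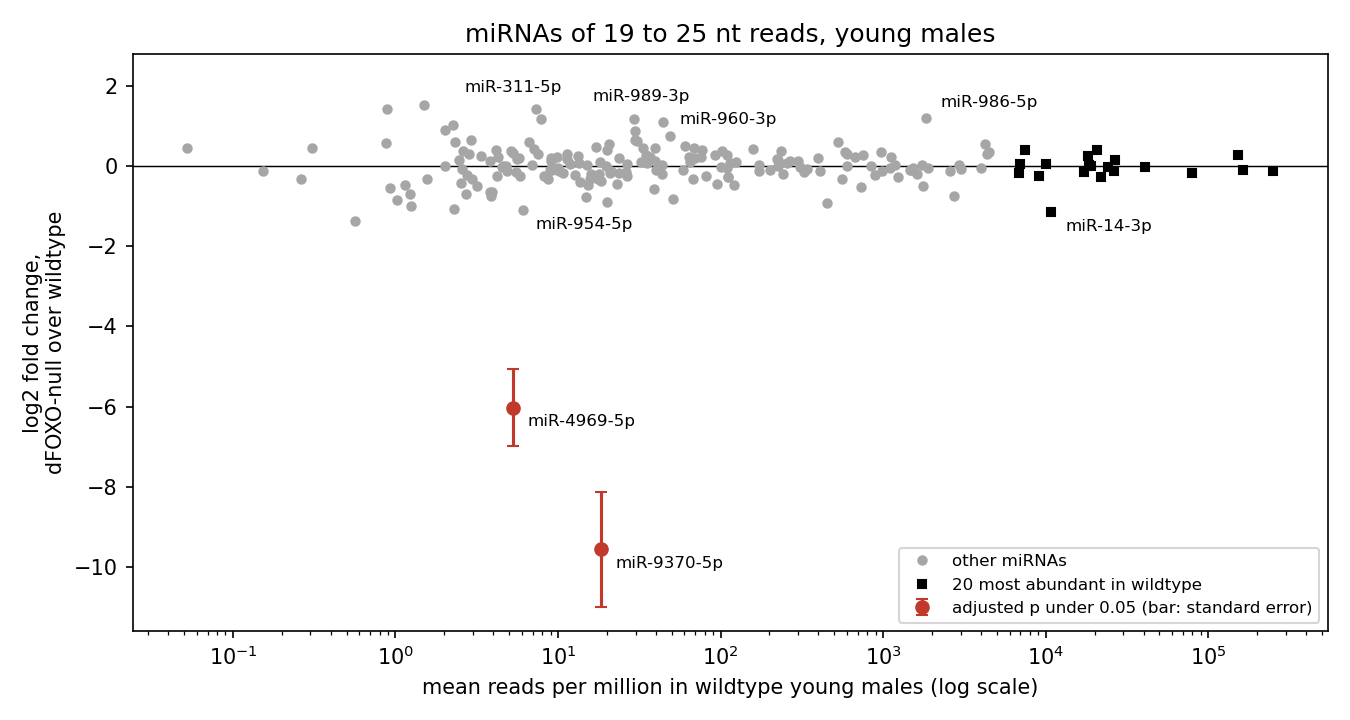
Log2 fold change of each of 208 miRNAs (vertical axis, dFOXO-null over wildtype) against its mean RPM in wildtype young males (horizontal axis, log scale), with standard errors for called miRNAs. miR-9370-5p (fitted log2 -9.56, with 0 counts in dFOXO-null) and miR-4969-5p stand apart from the other miRNAs, all of which have fitted values between -1.37 and 1.53.

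No list of miRNAs held a called member, while the median over all 208 was 0.0068. In the mir-959 to mir-964 cluster, which is expressed in the fat body of the adult head with a daily rhythm, all 9 members tested had positive values, with a median log2 fold change of 0.40, and 4 of them had both dFOXO-null libraries on top. Over all 208 miRNAs 51% had positive values and 17.8% had both dFOXO-null libraries on top. Summed, that cluster had 547 and 780 RPM in dFOXO-null and 404 and 619 RPM in wildtype, so the sums overlapped. The 9 members of the mir-310 cluster and its neighbours had a median of 0.20, with 221 and 326 RPM summed in dFOXO-null and 164 and 287 RPM in wildtype. Testis miRNAs of the X chromosome cluster had a median of 0.029 over 5 members, and the fast-evolving testis miRNAs 0.24 over 6. The early embryo cluster, known for clearing maternal mRNAs in the embryo, had 68.8 and 94.5 RPM in dFOXO-null and 70.1 and 81.0 RPM in wildtype. The let-7 complex, a developmental timer, had a median of -0.19 over 6 members, with 8147 and 8223 RPM in dFOXO-null and 7965 and 8227 RPM in wildtype. The mir-277 cluster, which holds miR-277, a regulator of amino acid breakdown, had -0.14 over 6. The 17 growth, insulin and metabolism miRNAs tested had a median of -0.095, the 17 of the nervous system and eye -0.11, the 15 K-box miRNAs 0.037, the 8 sensory organ miRNAs -0.064, the 5 of the Hox complexes 0.26, the 3 muscle miRNAs 0.014 and the 4 arms of the ovary miRNAs 0.022.

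Reads of 21 nt on transposons, the fraction that holds siRNAs, made up 1.11% and 1.38% of mapped 21 nt reads in dFOXO-null males and 1.20% and 1.54% in wildtype males. The ratio of the means was 0.91 ± 0.22 (SD propagated, n = 2 each), a difference smaller than the spread between replicates. With 2 libraries against 2 an exact two-sided permutation test cannot go below p = 0.333. Within that near-equal total the makeup differed. DMIS297 fell and TARTYAK rose in dFOXO-null males, and these were the 2 called of 105 transposons tested (1.9%), 1 in each direction (0.952% each), while 9 had an unadjusted p under 0.05 (8.57%). DESeq2 called 3 higher and 1 lower.

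DMIS297, the deposited table's entry for a retrovirus-like element of the gypsy group that is known by the number in that ID, gave the most 21 nt reads of any transposon in wildtype young males. It had 98.0 and 863 RPM in dFOXO-null males (154 and 167 counts), against 4945 and 7213 RPM in wildtype males (4936 and 2641 counts). The log2 fold change was -3.68 ± 0.84 and the adjusted p 0.038, and the 2 dFOXO-null libraries differed from each other by far more than the 2 wildtype libraries did. Old males gave -3.33, young females -2.33 and old females -2.19, none called (adjusted p = 0.13, 0.37 and 0.32). TARTYAK, an entry of the deposited table known here only by its ID, had 127 and 103 RPM in dFOXO-null (200 and 20 counts), against 21 and 27.3 RPM in wildtype (21 and 10 counts). Its log2 fold change was 2.28 ± 0.53 (adjusted p = 0.038). Old males gave 1.43, young females 0.55 and old females -0.40, none called (adjusted p = 0.19, 0.53 and 0.70). Neither call held in a fit of the 8 male libraries alone (adjusted p = 0.16 for each), of the 4 young male libraries alone (0.44 for DMIS297 and 0.34 for TARTYAK) or with spike-in scaling (1.0 for each). For DMIS297 the adjusted p was 0.15 without dFOXO-null replicate 1, 0.12 without wildtype replicate 1 and 0.20 without wildtype replicate 2. Without dFOXO-null replicate 2 the call of DMIS297 held and its log2 fold change was -5.95. For TARTYAK it was 0.15 and 0.086 without dFOXO-null replicates 1 and 2, and 0.27 and 0.20 without wildtype replicates 1 and 2.

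roo, an element of the BEL/Pao group, was the most abundant 21 nt transposon of dFOXO-null males. It had 4072 and 5639 RPM in dFOXO-null against 1407 and 1917 RPM in wildtype. Its log2 fold change of 1.55 ± 0.46 missed the threshold (adjusted p = 0.17), although both dFOXO-null libraries lay well above both wildtype libraries, and DESeq2 called it (adjusted p = 7.3e-05). Doc, a LINE-like element, had 237 and 248 RPM in dFOXO-null and 108 and 117 RPM in wildtype (1.10 ± 0.45, adjusted p = 0.36), and DESeq2 called it too (0.047). DMU89994, again known by its ID only, had 83.4 and 87.9 RPM in dFOXO-null and 31.1 and 30.0 RPM in wildtype. gypsy6 had 58.5 and 20.7 RPM in dFOXO-null and 20.0 and 2.73 RPM in wildtype, the last of these from 1 count. Stalker had 238 and 326 RPM in dFOXO-null and 126 and 183 RPM in wildtype.

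Among the elements with lower values in dFOXO-null, DMIS297 alone was called. opus had 330 and 393 RPM in dFOXO-null and 498 and 770 RPM in wildtype (log2 -0.81 ± 0.60). gypsy, an element that can form viral particles, had 120 and 114 RPM in dFOXO-null and 150 and 268 RPM in wildtype. copia had 101 and 155 RPM in dFOXO-null and 212 and 208 RPM in wildtype, with the groups not overlapping. DMIS176 (-0.84) and invader3 (-0.92) had values of like size. pogo, a DNA transposon, had 12.7 and 10.3 RPM in dFOXO-null (20 and 2 counts) and 34.1 and 43.7 RPM in wildtype (34 and 16 counts), with an unadjusted p of 0.015 and an adjusted p of 0.26.

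**Figure D2:**
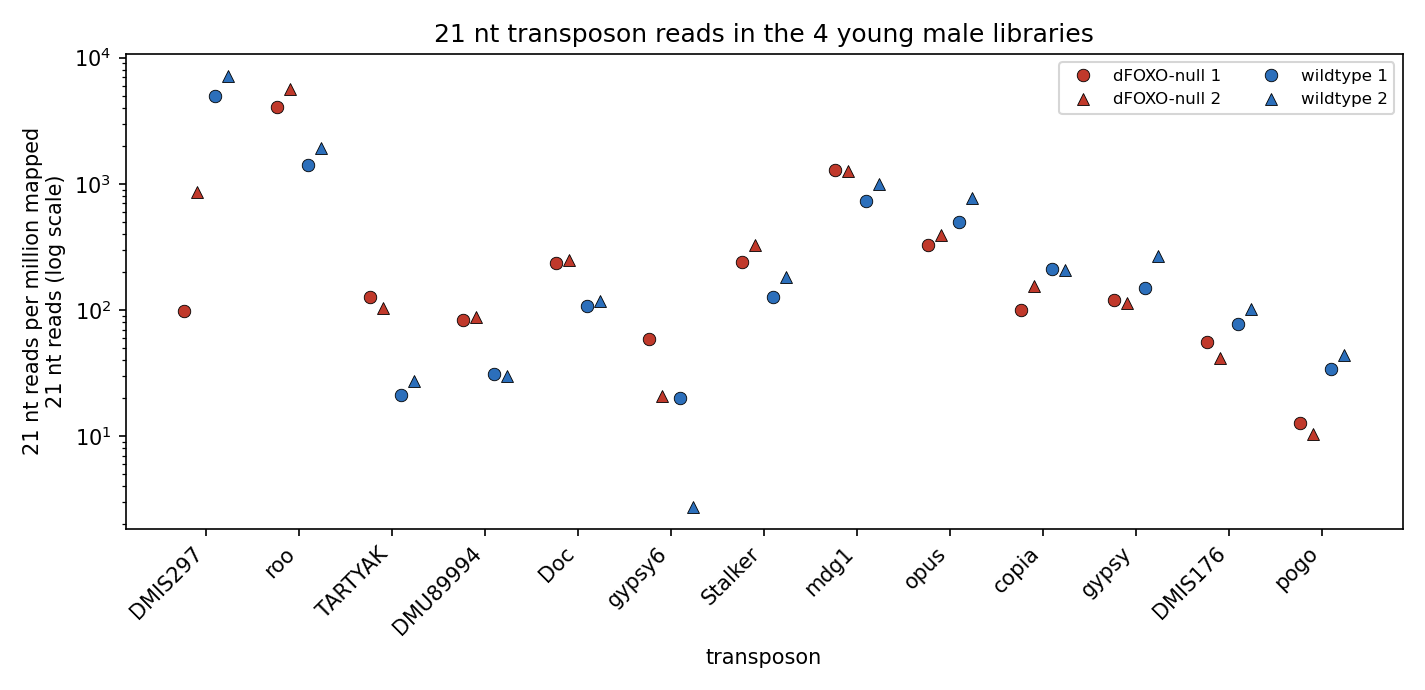
21 nt reads in RPM (vertical axis, log scale) for 13 transposons (horizontal axis) in each of the 4 young male libraries, with dFOXO-null in red and wildtype in blue and the replicate given by the symbol. DMIS297 is lower in both dFOXO-null libraries (98.0 and 863 RPM) than in wildtype (4945 and 7213 RPM), and roo and TARTYAK are higher in both.

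By group, the 21 gypsy-group errantiviruses tested had 1 member called lower (DMIS297), none called higher and a median log2 fold change of 0.52, or 0.44 with the 1 member at 0 counts in one genotype put at its bound. Over all 105 transposons the median was 0.35. With DMIS297 in it, that group summed to 1324 and 1964 RPM in dFOXO-null against 6211 and 8783 RPM in wildtype. The 14 of the mdg1 and mdg3 group had a median of 0.48 with none called, and mdg1 itself had 1282 and 1271 RPM in dFOXO-null against 728 and 991 RPM in wildtype. The 20 LINE elements had a median of 0.27, or 0.12 with 2 members at their bound, the 10 DNA transposons 0.14 and the 3 copia elements -0.26. The telomeric element TART-C, named in full in the table, had 33 and 11 counts in dFOXO-null and 36 and 1 counts in wildtype. The 5 transposons ranked just below the 20 most abundant (Tabor, baggins, DMBLPP, DMAURA and DNTOMRETA) had log2 values from -0.33 to 1.03, none called. Libraries of the genotypes did not overlap for 35 of 105 transposons (33.3%), 21 higher (20%) and 14 lower (13.3%) in dFOXO-null.

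Over all reads of 19 to 25 nt, 0 of 122 transposons were called by edgeR (0%), with 4 at an unadjusted p under 0.05 (3.28%). DESeq2 called 2, and edgeR with TMM scaling called 2. DMIS297 was again the lowest, with 36.0 and 159 RPM in dFOXO-null and 723 and 1134 RPM in wildtype (log2 -3.26 ± 0.80, adjusted p = 0.14). A fit with the replicate number as a block called DMIS297, though the labels do not pair the genotypes. In these reads old males gave -2.84, young females -0.36 and old females -1.23, none called. The difference from young females was -2.90 (edgeR interaction test, unadjusted p = 0.016, adjusted p = 0.69). DMAURA had 151 and 260 RPM in dFOXO-null and 46.4 and 75.5 RPM in wildtype (1.76 ± 0.66, adjusted p = 0.58), and accord 13.8 and 19.1 RPM in dFOXO-null and 5.73 and 5.48 RPM in wildtype. These 2 together with DMIS297 and DMU89994 are the 4 elements under an unadjusted 0.05. DME9736 (0.97) and G6 (1.19) had higher and gypsy5 (-1.37), R2 (-1.01), gypsy (-0.91) and DMHFL1 (-0.85) lower values in dFOXO-null, all with non-overlapping libraries and none called. R2, which inserts into ribosomal RNA genes, had 67 and 1 counts in dFOXO-null and 64 and 16 in wildtype. DME010298, G2, diver2, gypsy and DME487856, ranked 21 to 25 in wildtype, ranged from -0.91 to 0.38. Libraries did not overlap for 44 of 122 transposons (36.1%), 33 of them higher (27%) and 11 lower (9.02%) in dFOXO-null.

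The share of an element's reads that was 21 nt long is given as a description, with no test of the shares. For DMIS297, 28.1% (95% Wilson interval 24.5 to 32.0) and 60.9% (55.1 to 66.5) of the 19 to 25 nt reads were 21 nt long in dFOXO-null, against 71.2% and 70.9% in wildtype. For roo the share was 55.0% and 55.8% in dFOXO-null and 29.8% and 32.6% in wildtype. TARTYAK, with 91 reads in dFOXO-null replicate 2, had 27.2% and 22.0% in dFOXO-null and 7.55% and 8.55% in wildtype. These intervals cover counting error only. mdg1 had 60.4% and 57.2% in dFOXO-null and 46.6% and 55.8% in wildtype. copia (6.39% and 8.04% against 13.3% and 12.5%) and opus (17.1% and 16.1% against 24.1% and 29.6%) had lower shares in dFOXO-null. Of 26 transposons with at least 100 reads in each library, 4 had both dFOXO-null shares above and 8 both below the wildtype shares, and for all transposons together the share was 26.5% and 25.1% in dFOXO-null and 28.4% and 32.2% in wildtype. Among 87 miRNAs with as many reads, 6 lay above and 9 below. Reads of the other lengths gave log2 fold changes of 0.099 for roo, 0.36 for TARTYAK and -2.62 for DMIS297, none called (adjusted p = 0.97, 0.97 and 0.51). For roo and TARTYAK the fitted change was larger in 21 nt reads than in the other lengths, and whether the length classes differ was not tested. DMIS297 had both dFOXO-null libraries below wildtype in 19 to 25 nt and in 21 nt reads. This split by length was added after the data had been seen.

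**Figure D3:**
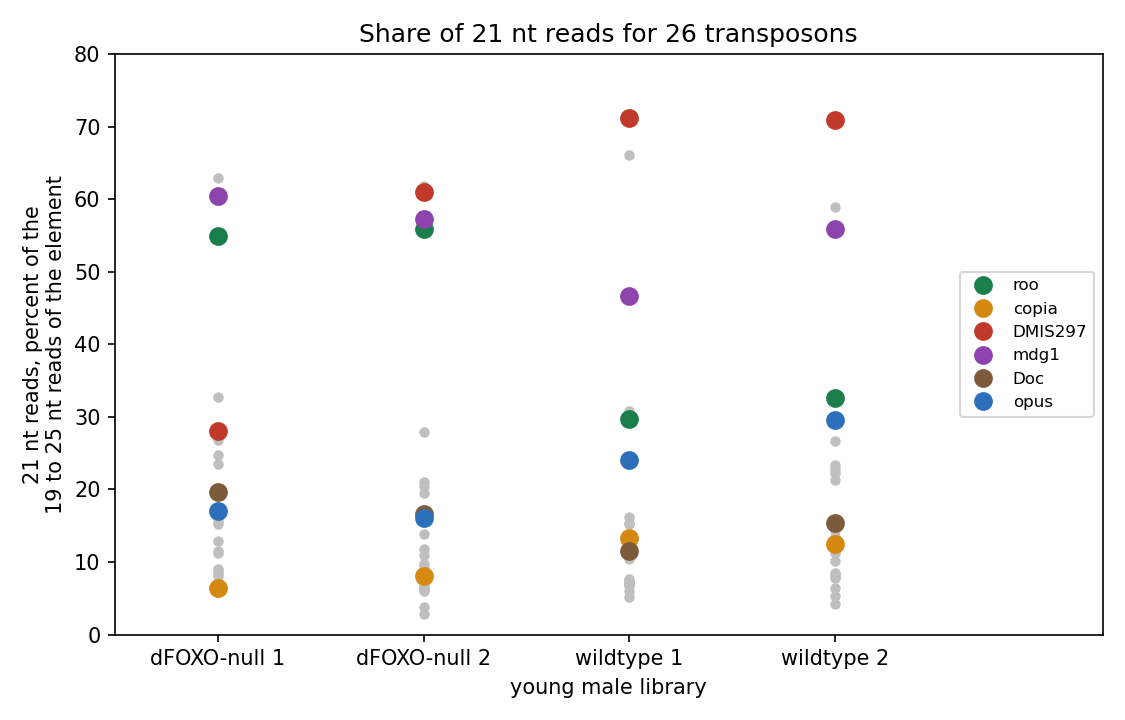
Reads of 21 nt as a percent of the 19 to 25 nt reads of the same element (vertical axis) in each young male library (horizontal axis), with 1 point for each of 26 transposons and 6 of them coloured. DMIS297 (red) is at 28.1% and 60.9% in dFOXO-null against 71.2% and 70.9% in wildtype, and roo (green) is higher in dFOXO-null.

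On dm6 transcripts, 10 of 1566 were called (0.639%), 5 higher and 5 lower in dFOXO-null (0.319% each), and 66 had an unadjusted p under 0.05 (4.21%). DESeq2 called 6 higher and 13 lower, and TMM scaling 0 higher and 4 lower. The called transcripts fell into 3 sets, those whose exons overlap annotated roo insertions, those whose exons overlap annotated DMIS297 insertions, and Muc14A and mir-4969, which overlap neither. Calls are made per transcript, but reads that fit several places were counted at each. Of the tested transcripts, 249 had the same count as another in every one of the 16 libraries, so members of a set are not separate observations.

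Snoo, luna, udd and CG7231 fell. Snoo, a Ski/Sno corepressor of TGF-beta signalling (transcript on 2L, - strand, 7892325-7977963), had 44.4 and 210 RPM in dFOXO-null (189 and 167 counts), against 1506 and 2222 RPM in wildtype (4450 and 2545 counts), with a log2 fold change of -3.89 ± 0.81 (adjusted p = 0.033). Its exon overlaps 829 bases of a DMIS297 insertion annotated at 2L:7977135-7984051, and CG7231 overlaps the other end of the same insertion by 106 bases. luna, a Krüppel-like zinc finger factor, had 153 and 154 counts in dFOXO-null and 4134 and 2406 counts in wildtype, and an exon of it holds 413 bases of DMIS297. udd, needed for ribosomal RNA transcription in the germline, had 122 and 134 counts in dFOXO-null and 3529 and 2088 counts in wildtype, with 329 bases of DMIS297. CG7231 had 58 and 53 counts in dFOXO-null and 1697 and 750 counts in wildtype. Their log2 fold changes lay between -3.98 and -3.89 with the same adjusted p of 0.033. Syt1, the calcium sensor of synaptic vesicles, had 0 and 6 counts in dFOXO-null and 207 and 68 counts in wildtype, and touches a DMIS297 insertion by 1 base (adjusted p = 0.19). CG12547 had 3 and 9 counts in dFOXO-null and 131 and 112 counts in wildtype, with 90 bases of DMIS297 (adjusted p = 0.26). Marf1, the last of the 7 tested transcripts with DMIS297 in an exon, had 3 and 0 counts in dFOXO-null and 10 and 3 counts in wildtype, so that all 7 had both dFOXO-null libraries below both wildtype libraries (background 15.7%). Their median log2 fold change was -3.95, against 0 over all 1566. The 4 calls were lost without dFOXO-null replicate 1 (adjusted p = 0.47 for each), without wildtype replicate 1 (0.14) and without wildtype replicate 2 (0.25), and in the fit of the 8 male libraries (0.054) or of the 4 young male libraries (0.29 to 0.34).

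lncRNA:CR45222, lncRNA:CR44657, Gas8 and Ogdh rose. Gas8, a part of the dynein regulatory complex of motile cilia and sperm tails, had 42.0 and 39.0 RPM in dFOXO-null (179 and 31 counts), against 3.04 and 3.49 RPM in wildtype (9 and 4 counts), with a log2 fold change of 3.63 ± 0.70. Ogdh, an enzyme of the citric acid cycle, had 179 and 31 counts in dFOXO-null and 11 and 4 counts in wildtype. The 2 lncRNAs had 178 to 180 and 31 counts in dFOXO-null and 7 to 8 and 4 counts in wildtype. All 4 log2 fold changes lay between 3.47 and 3.82 with an adjusted p of 0.033. An exon of each overlaps an annotated roo insertion by 23 to 56 bases, and the counts of the 4 were nearly the same in every library. A further set with roo at an exon edge (Lime, CG12885, lncRNA:CR45309, lncRNA:CR45570 and lncRNA:CR44462) had 198 to 201 and 34 counts in dFOXO-null and 21 to 22 and 8 counts in wildtype, with log2 values of 2.63 to 2.66 and adjusted p of 0.19. Of the 14 tested transcripts with roo in an exon, 11 had both dFOXO-null libraries above both wildtype libraries (background 11.2%), while Obp73a, CG32512 and lncRNA:CR44922 had log2 values of -0.31, -0.40 and -0.45. The 4 calls were lost without any 1 of the 4 libraries (adjusted p from 0.065 without dFOXO-null replicate 2 for lncRNA:CR44657 to 0.51 without wildtype replicate 1), in the fits of the male libraries (0.054) and the young male libraries (0.23), and with TMM scaling (0.077 to 0.099).

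No transcript overlapping another transposon family was called. Kmn1, CG6966 and CG11000 each hold 186 bases of pogo and had log2 values of -1.77, -1.46 and -1.43, with unadjusted p under 0.05 and none called. The 37 with INE-1 had a median of -0.20 and the 24 with the DNA transposon DM1360 a median of 0.21, none called. Among the 101 tested transcripts with a transposon other than DMIS297 or roo in an exon, 0 were called by edgeR, 5 had an unadjusted p under 0.05, and the median was -0.0026.

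**Figure D4:**
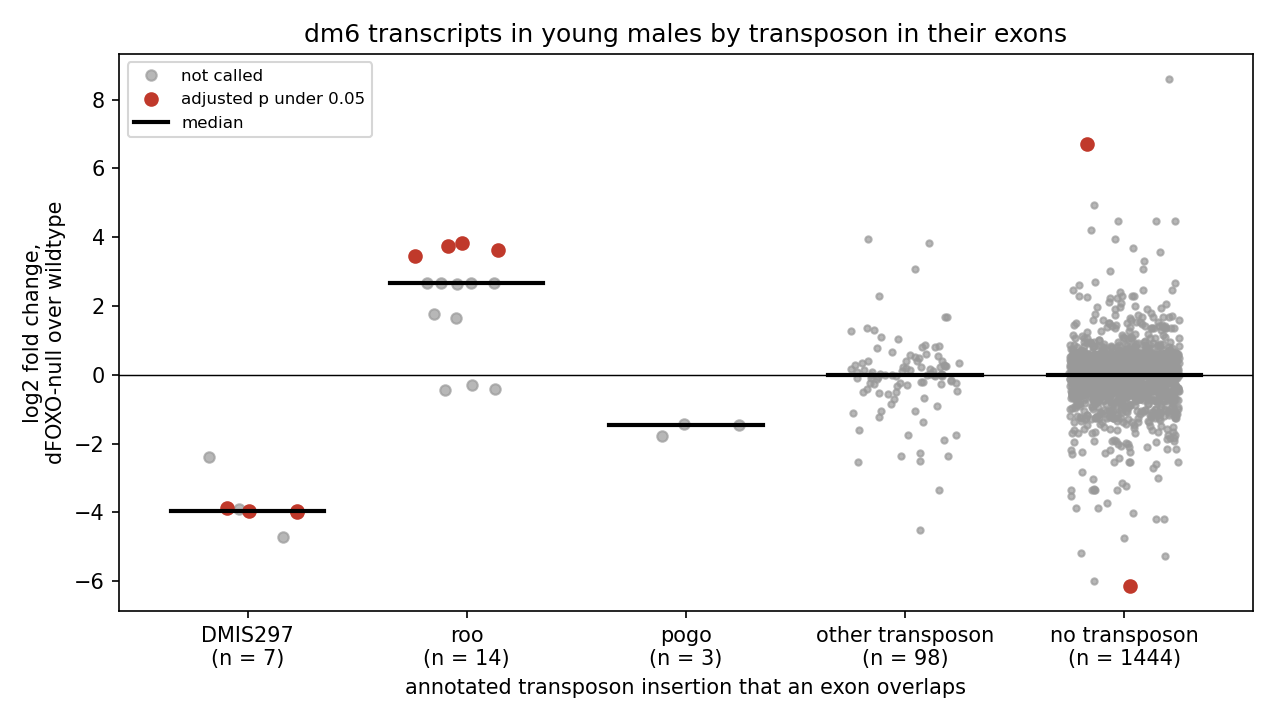
Log2 fold change of each tested dm6 transcript (vertical axis, dFOXO-null over wildtype) by the annotated transposon that its exons overlap (horizontal axis), with called transcripts in red and medians as bars. Transcripts with DMIS297 lie below 0 (median -3.95), most with roo lie above 0 (median 2.66), and Muc14A and mir-4969 are the 2 called transcripts without a transposon.

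Muc14A, a gene for a mucin, a heavily glycosylated secreted protein (X:16009114-16061722, + strand), had 65 and 42 counts in dFOXO-null young males (15.3 and 52.8 RPM), against 0 and 1 counts in wildtype young males (0 and 0.87 RPM). dFOXO-null exceeded wildtype by 86.8-fold in pooled RPM (exact 95% counting interval 15.2 to 3460, adjusted p = 0.033). That interval covers counting error only and leaves out the spread between libraries. The contrast ran the other way in old males, with 9 and 0 counts in dFOXO-null against 162 and 74 counts in wildtype (log2 -3.89, adjusted p = 0.14), and the difference between the ages was 10.60 ± 1.68 on the log2 scale (adjusted p = 0.016). It was the 1 called of 1566 transcripts in that test (0.0639%). The labels pair the ages within a genotype as siblings, a pairing that test did not use. Only young male libraries were left out in turn below, and no old male library was. Female libraries had 49 to 992 counts of it. Muc12Ea, named after its values were seen, had 147 and 0 counts in dFOXO-null young males and 0 and 0 counts in wildtype young males, with 2267 to 11530 counts in female libraries. The ovary miRNAs of the same young male libraries summed to 148 and 241 RPM in dFOXO-null and 192 and 106 RPM in wildtype. In old males they summed to 210 and 1543 RPM in dFOXO-null and at most 301 RPM in wildtype. Muc12Ea had 30 and 284 counts in dFOXO-null old males and 22 and 0 counts in wildtype old males. The 0 counts of Muc14A in old males are from dFOXO-null replicate 2, which had the smallest dm6 sum of the 16 libraries (394784). The part of ovary miRNAs in the mucin counts was not tested. The young male call was lost without any 1 of the 4 libraries (adjusted p = 0.098 and 0.12 without dFOXO-null replicates 1 and 2, and 0.51 and 0.25 without wildtype replicates 1 and 2), with TMM scaling (0.052), in the 8 male libraries (0.054) and in the 4 young male libraries (0.27). The difference between the ages was lost without dFOXO-null replicate 2 (0.069) and without wildtype replicate 1 (0.32).

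mir-4969, the hairpin described above, was called lower in the dm6 table (adjusted p = 0.033), a call lost without any 1 library (0.15 to 0.65), with TMM scaling (0.052) and in the male (0.054) or young male libraries (0.23). Among transcripts not called, snoRNA:Psi18S-1295, a guide of rRNA pseudouridylation, came nearest, with 20.4 and 16.3 RPM in dFOXO-null and 1.35 and 2.62 RPM in wildtype (log2 3.30 ± 0.74, adjusted p = 0.059). snoRNA:Or-CD12 had 61.5 and 54.1 RPM in dFOXO-null and 237 and 277 RPM in wildtype (-2.15 ± 0.60, adjusted p = 0.22). CG32320, one of the 25 most abundant dm6 features of wildtype young males, had 1135 and 773 RPM in dFOXO-null and 4510 and 5807 RPM in wildtype (-2.43 ± 0.88, adjusted p = 0.69). The other features ranked 21 to 25, the pseudogenes 28SrRNA-Psi:CR41609 and 28SrRNA-Psi:CR45855 and the hairpins mir-986 and mir-33, had log2 values between -0.29 and 1.10. Close to the foxo locus, 9 tested transcripts lay within 1 Mb, with none called by edgeR and 1 at an unadjusted p under 0.05. Within 5 Mb there were 94, with 1 called (lncRNA:CR45222, given above) and 5 at an unadjusted p under 0.05, beside 4.21% of all transcripts.

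Fragments of 3 structural RNA classes and of protein-coding transcripts made up a smaller share of dm6 reads in dFOXO-null. The genotypes overlapped in each class once a few members, chosen after the data had been seen, were left out. snRNA fragments were 0.0806% and 0.0815% of dm6 reads in dFOXO-null and 0.166% and 0.199% in wildtype (ratio of means 0.44 ± 0.057). snoRNA fragments were 0.157% and 0.161% in dFOXO-null and 0.240% and 0.259% in wildtype (0.64 ± 0.035). tRNA fragments were 3.25% and 4.49% in dFOXO-null and 5.44% and 5.39% in wildtype (0.71 ± 0.16), and protein-coding transcripts 1.57% and 1.26% in dFOXO-null and 2.06% and 2.70% in wildtype (0.59 ± 0.14). In these 4 classes the genotypes did not overlap, and the design cannot take an exact permutation test below 0.333. Without the 5 copies of U2, the snRNA share was 0.0393% and 0.0538% in dFOXO-null and 0.0419% and 0.0589% in wildtype (0.92 ± 0.30). Without the 14 copies of tRNA:Gly-GCC, the tRNA share was 2.09% and 3.68% in dFOXO-null and 2.55% and 3.57% in wildtype (0.94 ± 0.43). The snoRNA share without the 3 U3 copies and snoRNA:Or-CD12 was 0.0890% and 0.0848% in dFOXO-null and 0.0880% and 0.0855% in wildtype (1.00 ± 0.040). For protein-coding transcripts, leaving out the 7 with DMIS297 in an exon gave 1.55% and 1.20% in dFOXO-null and 1.58% and 2.003% in wildtype (0.77 ± 0.19), and leaving out CG32320 as well gave 1.44% and 1.12% in dFOXO-null and 1.13% and 1.42% in wildtype (1.00 ± 0.24). With these members out the genotypes overlapped in all 4 classes. The members left out were chosen after the data had been seen and had lower shares in dFOXO-null, so the ratios had to rise without them. Copies of 1 RNA counted the same reads more than once, while CG32320 and snoRNA:Or-CD12 were left out as single transcripts. The shares of miRNA hairpins, pseudogenes, other ncRNA and rRNA overlapped. rRNA varied most between replicates, with 8.47% and 19.2% in dFOXO-null and 8.09% and 12.9% in wildtype.

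**Figure D5:**
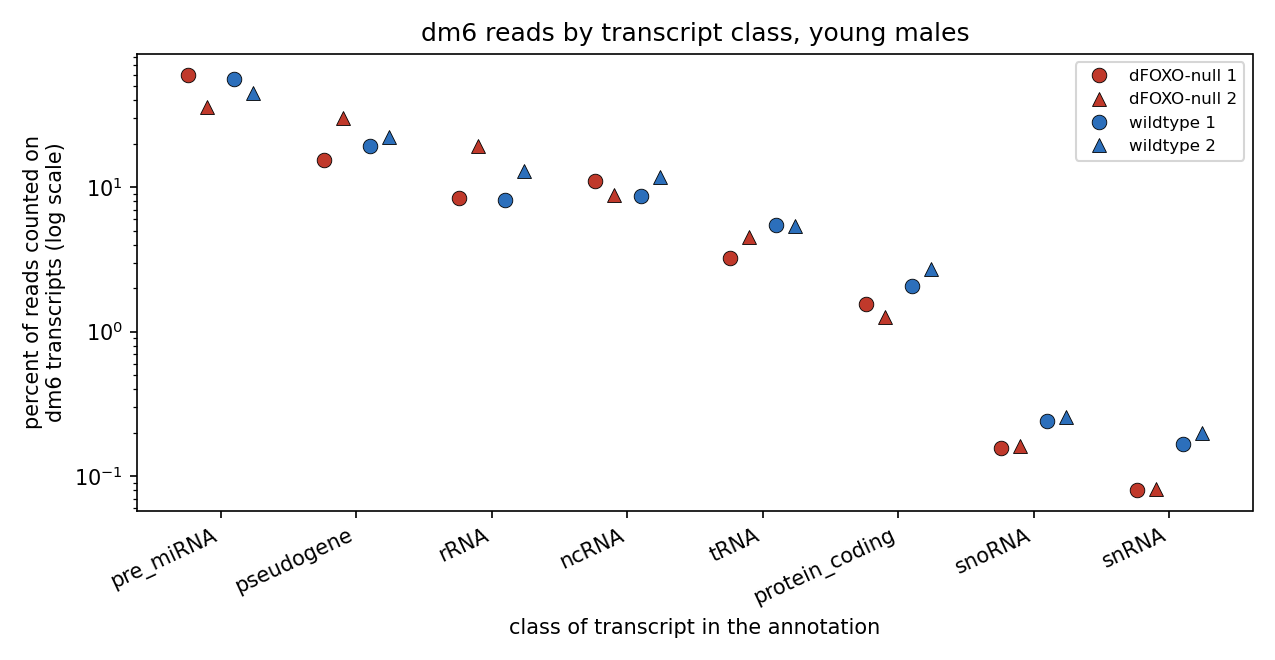
Percent of reads counted on dm6 transcripts (vertical axis, log scale) for 8 transcript classes (horizontal axis) in each young male library, with dFOXO-null in red and wildtype in blue. The dFOXO-null libraries are lower for tRNA, protein-coding, snoRNA and snRNA, and overlap wildtype for the other classes. With a few members left out, named in the text and chosen after the data had been seen, the genotypes overlap in all 4 classes.

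No single member of the snRNA, snoRNA or tRNA classes was called. U2 snRNA, part of the spliceosome, accounts for the snRNA members with an unadjusted p under 0.05, 5 of 28 tested, beside 4.21% of all dm6 transcripts. Its copy snRNA:U2:34ABb had 85.4 and 55.3 RPM in dFOXO-null and 268 and 305 RPM in wildtype (log2 -2.01 ± 0.57, adjusted p = 0.23), and snRNA:U2:38ABa gave -1.93. The U2 genes are near-identical copies and share their reads. Of 281 tRNA genes, 14 had an unadjusted p under 0.05, all copies of tRNA:Gly-GCC, again with shared reads, a number close to that background. tRNA:Gly-GCC-1-5 had 3509 and 465 counts in dFOXO-null and 6110 and 1530 counts in wildtype (log2 -1.27).

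Among lists of genes by function, none had a called member. The heat shock and stress genes had a median of -1.05 over 7 tested, and 6 of the 7 had both dFOXO-null libraries below wildtype, 5 of them Hsp70 copies that share reads (background 15.7% of all dm6 transcripts). Hsp70Bc had 36 and 5 counts in dFOXO-null and 45 and 24 counts in wildtype (-1.24 ± 0.61, unadjusted p = 0.059). All 11 digestive enzymes tested had negative values (median -0.48), as did 49.9% of all dm6 transcripts. Of the 11, 5 had both dFOXO-null libraries below wildtype (background 15.7%) and 2 had an unadjusted p under 0.05 (background 4.21%). Jon65Aiii, a serine protease, had 7 and 2 counts in dFOXO-null and 27 and 26 counts in wildtype, and the maltase Mal-A1 had 9 and 0 counts in dFOXO-null and 21 and 21 counts in wildtype. Summed, the digestive enzymes had 122 and 90.5 RPM in dFOXO-null and 104 and 290 RPM in wildtype, so that wildtype replicate 2 was high and the sums overlapped. Replication histones had a median of -0.34 over 111, with 864 and 1187 RPM in dFOXO-null and 1203 and 1198 RPM in wildtype. The Suppressor of Stellate and Stellate repeats, the source of abundant testis piRNAs, had a median of 0.12 over 39, with 83018 and 61701 RPM in dFOXO-null and 58176 and 72536 RPM in wildtype. hpRNA:CR46342, a long hairpin that Dcr2 cuts into siRNAs, had 127679 and 20734 counts in dFOXO-null and 86926 and 55765 counts in wildtype (log2 -0.48 ± 0.66). The 2 muscle actins tested, Act57B and Act88F, had 0.34 and 0.39. The list of insulin and FOXO pathway genes had no member among the counted transcripts, and the RNA interference and piRNA genes had 1, which did not reach the count minimum.

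The dFOXO effect of young males was tested against that of the other groups for each kind of small RNA. Against young females, 0 of 208 miRNAs, 0 of 105 transposons (21 nt) and 0 of 1566 dm6 transcripts differed at an adjusted p under 0.05 in edgeR (0% each), with 10 (4.81%), 6 (5.71%) and 77 (4.92%) at an unadjusted p under 0.05. DESeq2 called 3 of the miRNAs. miR-6-3p and miR-286-3p, of the early embryo cluster, had the smallest unadjusted p of the miRNAs there. miR-6-3p had a log2 fold change of 0.22 in young males and -3.68 in young females, and miR-286-3p 0.067 and -3.49 (adjusted p of the difference 0.35 for each). miR-976-3p, a testis miRNA, had 0.43 in young males and -2.84 in young females. Of the 21 nt transposons that averaged 20 or more counts over the young males, Doc (1.10 and -0.56) and TARTYAK (2.28 and 0.55) had the smallest unadjusted p (adjusted p = 0.49 for each). Against old males, 0 miRNAs and 0 transposons differed, with 0 and 0 at an unadjusted p under 0.05, and DESeq2 also called 0 of each. Of the dm6 transcripts 50 had an unadjusted p under 0.05 (3.19%), and Muc14A, given above, was the 1 called.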

How the data were processed

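Small RNA of 19 to 35 nt was gel-purified from whole flies, spiked with synthetic RNAs after elution and sequenced. Per the labels, the authors used Trim Galore, Bowtie and featureCounts and the dm6 build, and deposited raw counts per miRNA, transposon or transcript as 3 tables (19 to 25 nt reads, 21 nt reads and dm6 transcripts). Versions are not given in the sources used here. Their normalized tables were not used, and 0 per-sample columns were left unassigned.

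Counts were fitted with edgeR 4.0.16 (quasi-likelihood, 8 group means over 16 libraries, library size without spike-ins, mean count of at least 5), with p-values adjusted over all features of a kind. Depth was 114210 to 15259153 reads per library and table. The fits were run on simulated counts with known changes, with adjustment over each whole table. Of 4-fold changes, 14 of 41 (19 to 25 nt), 21 of 32 (21 nt) and 19 of 100 (dm6) were called. Of 16-fold changes, 40 of 41, 30 of 32 and 80 of 100 were called. A feature not called may thus still differ by 4-fold. Exon overlaps (at least 1 base), transcript classes and hairpin positions came from the Ensembl annotation of dm6, in which 2299 of 2303 transcripts were found.

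Named features were those called with at least 20 mean counts and non-overlapping libraries (up to 15 a direction), called ones under that count, where fewer than 10 were named the 5 smallest p a direction among the rest, and the 5 ranked below the top 20. The members and lists were chosen with earlier results of these data known. Other scalings, tools, filters, sample sets and left-out libraries were tried.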

Additional observations from a re-analysis of the deposited data

Results flagged for a closer look

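For Muc14A the dFOXO effect differed between young and old males by 10.60 on the log2 scale (adjusted p = 0.016, edgeR interaction test with Benjamini-Hochberg adjustment over 1566 transcripts). It had 65 and 42 counts in dFOXO-null young males and 0 and 1 counts in wildtype young males, and 9 and 0 counts in dFOXO-null old males and 162 and 74 counts in wildtype old males. The difference was not called without dFOXO-null young male replicate 2 (adjusted p = 0.069) or without wildtype young male replicate 1 (0.32). The 0 counts in dFOXO-null old males are from replicate 2, which had the smallest dm6 sum of the 16 libraries (394784). That replicate also had 1543 RPM of ovary miRNAs, against 210 RPM in replicate 1. No old male library was left out in turn, and no cause of the difference was tested.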

How the results depend on the processing

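Counts of calls moved with several settings. With spike-in reads as library size, which numbered 364 and 123 in dFOXO-null and 187 and 537 in wildtype libraries, no call remained among miRNAs of 19 to 25 nt (0), miRNAs of 21 nt (0) or transposons of 21 nt (0). It was not run for dm6 transcripts. DESeq2 called 4 transposons of 21 nt (3 higher and 1 lower, against 1 and 1), 2 of 19 to 25 nt, 19 dm6 transcripts and, in the difference from young females, 3 miRNAs against 0 by edgeR, where the 8 libraries of young flies alone gave 2. TMM scaling gave 2 transposons of 19 to 25 nt and 4 dm6 transcripts. The 4 young male libraries alone gave 0 transposons of 21 nt, 0 miRNAs of 21 nt and 0 dm6 transcripts, and the 8 male libraries 0 transposons of 21 nt and 0 dm6 transcripts, with fewer samples behind the estimate of spread. Leaving out transcripts with a transposon in an exon, an alternative chosen after seeing the data, left 0 of 1444 called, 46 at an unadjusted p under 0.05. Leaving out the leading members of a class, also chosen after seeing the data, moved the ratio of dm6 shares to 0.92 for snRNA, 0.94 for tRNA, 1.00 for snoRNA, and 0.77 (DMIS297 transcripts out) or 1.00 (CG32320 out too) for protein-coding transcripts. Leaving out 1 library at a time gave 0 to 2 miRNAs and 0 to 1 of 21 nt, 0 to 1 transposons of 21 nt, 0 to 5 dm6 transcripts, and 0 to 1 in the difference from old males. Only young male libraries were left out, also for the differences from old males and from young females. A genotype with 1 library left is assumed to vary like the other groups. The labels give replicate numbers to both genotypes without saying that a number pairs them. Within a genotype they pair the ages as siblings, and the main fit had no block for this. Same-numbered young male libraries deviated together, with correlations of 0.53 for miRNAs, 0.70 for transposons of 19 to 25 nt, 0.81 for those of 21 nt and 0.75 for dm6 transcripts. A fit with the replicate number as a block called 1 transposon of 19 to 25 nt against 0 (DMIS297, log2 -3.43, adjusted p = 0.012 in edgeR), and 12 dm6 transcripts against 10. No fitted direction of a called feature, or of one named for its small p, turned in any setting run. This does not cover the features named by rank just below the most abundant, such as miR-8-5p and DNTOMRETA. Scaling moved the median log2 fold change of 21 nt transposons from 0.35 to 0.47 (DESeq2) or 0.21 (TMM), that of dm6 transcripts to 0.15 (DESeq2), and that of 21 nt miRNAs from -0.047 to 0.11 (DESeq2) or -0.17 (TMM). Depth limits the rare features most, since dFOXO-null replicate 2 held the fewest reads of the 4 libraries in every table.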
